A study of Mus musculus with 6 samples.

Results

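Fstl1, 9530053A07Rik, Tstd1, Ptger3 and Gm43267 were among the most raised transcripts of METTL3-deficient splenic NK cells, and they are described here sample by sample. They are 5 of the 14490 genes listed in the deposited mRNA-seq table, and they were chosen by their rise in cKO over WT. Their difference between genotypes is therefore given as a description, with no test. NK cells had been purified by flow cytometry from the spleens of young adult C57BL/6 mice, with 3 samples per genotype. WT mice were Mettl3fl/fl without Cre, and cKO mice were Ncr1Cre-Mettl3fl/fl, so the floxed alleles were shared by both genotypes. Cre was expressed from the Ncr1 locus, which is active in NKp46+ cells, among them NK cells and NKp46+ innate lymphoid cells. The WT mice lacked Cre, so the effects of Cre, of its insertion in Ncr1 and of the loss of Mettl3 cannot be told apart. Nothing in the labels says that the 3 samples of a genotype came from separate animals, and p-values given below then measure the spread between these samples only.

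METTL3 is the catalytic subunit of the enzyme that writes N6-methyladenosine on mRNA, a mark that is read by proteins governing decay, splicing and translation. The 5 genes belong to no single pathway. Fstl1 encodes a secreted glycoprotein of the follistatin and SPARC family that binds bone morphogenetic proteins (BMPs). Ptger3 encodes EP3, a receptor for prostaglandin E2 that mostly couples to inhibitory G proteins and lowers cyclic AMP, whereas EP2 and EP4 raise it. Prostaglandin E2 acting through cyclic AMP is a well-known brake on NK cells. Tstd1 encodes a small sulfurtransferase with a rhodanese domain. 9530053A07Rik is a protein-coding gene that RefSeq lists with the synonym FCGBP, the name of a mucin-like Fc-binding protein, and Gm43267 is a single-exon gene model of the class TEC, which awaits experimental support.

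The labels were checked on the deleted gene first. Mettl3 had between 1192 and 1303 normalized counts in WT and between 297 and 405 in cKO, with the highest cKO value in cKO-3. Of its 5076 annotated exon bases, 933 (18.4%) are also exon of Tox4, and the part of Tox4 reads was not tested. A normalized count is the number of reads of a gene divided by the size factor of its sample, and group values are written below as the mean ± SD of n = 3 samples. Reads on listed genes numbered between 55965515 and 71464042 per sample. All 12 NK cell markers of a fixed list were listed, with a sum between 1004934 and 1038546 normalized counts in WT and between 955663 and 1002050 in cKO. The granzyme gene Gzma had the largest part of these sums, with means of 267263 in WT and 248449 in cKO. Ncr1, which carries the Cre insertion in cKO, had 22394 ± 286 normalized counts in WT and 16918 ± 230 in cKO. In bulk RNA, fewer cells of a type and less RNA per cell cannot be told apart.

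Over all 14490 genes, the log2 values of normalized counts plus 1 were compared by limma with Benjamini-Hochberg adjustment. Of these, 36.6% reached an adjusted p under 0.05, with 17.8% raised and 18.8% lowered in the cKO samples. Higher genes thus made up 48.5% of those passing, and 63.4% when the samples were scaled to equal totals. In 22.7% of genes every cKO sample lay above every WT sample. The 5 genes all belonged to the latter, which their choice made likely and from which nothing is read. With 17 genes at a log2 difference no smaller than that of Gm43267, the 5 genes held ranks 1, 4, 9, 13 and 17 of the rises with 1 added before the log. Ranks 16 and 18 lay next to the limit set by Gm43267, at log2 differences of 1.75 for Nek10 and 1.72 for Kcnh6.

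All 5 genes were scarce. The median gene of the table had a mean of 879.5 normalized counts over the 6 samples, and the 5 genes had means between 17.8 and 150.03. The lowest mean of any listed gene was 16.7, so a gene that is rare in both genotypes is not in the table. Ptger3, with a mean of 17.8, held rank 170 of 14490 from the lowest. A gene with the WT mean of Ptger3 needed a cKO mean of 28.1 to be listed at all, and Ptger3 had 30.4, so it was listed only through its cKO samples. The WT mean of 9530053A07Rik lay under the same limit. WT means under 10 normalized counts occurred in 9 listed genes, all of them higher in cKO, and cKO means under 10 occurred in 11.

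**Figure D1:**
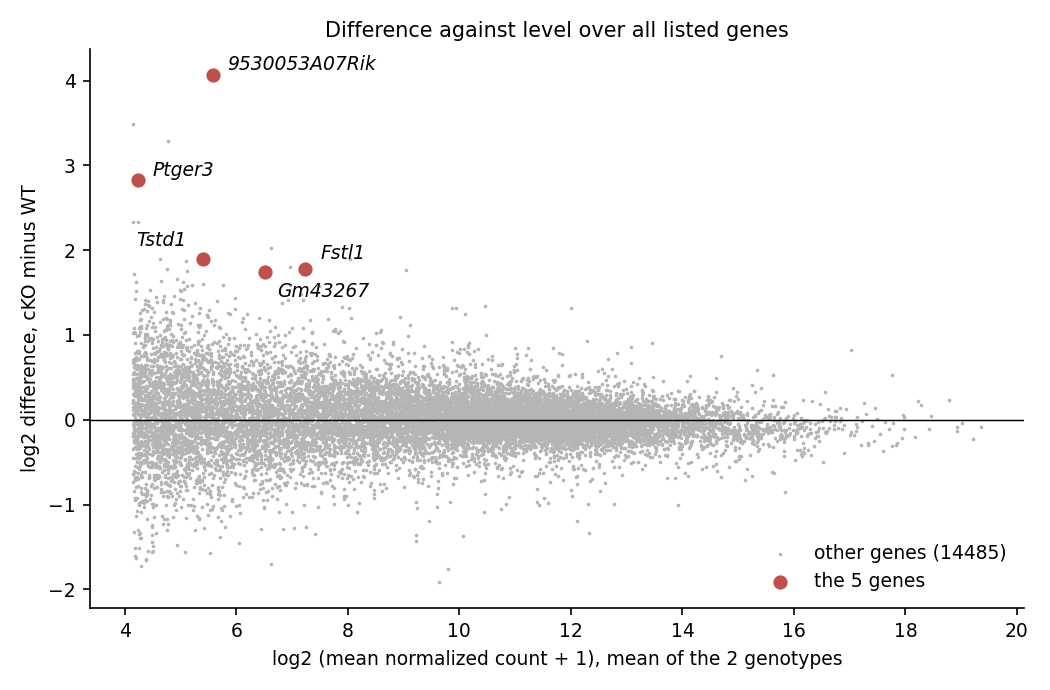
Log2 difference between cKO and WT against the level of each gene, the log2 of the mean normalized count plus 1, for all 14490 listed genes (grey) with the 5 genes in red. The 5 genes lie at log2 differences between 1.75 and 4.07 in the sparse upper edge of the cloud, and Ptger3 lies close to its left edge, the lowest level listed.

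Each gene was located in GENCODE M21 on GRCm38. Fstl1 lies at chr16:37776873-37836514 and Ptger3 at chr3:157566892-157645888. 9530053A07Rik lies at chr7:28129466-28164811, which is 23.8 Mb from Ncr1, the site of the Cre insertion on the same chromosome. Tstd1 lies at chr1:171418872-171420352 and Gm43267 at chr5:144223725-144225520. All 5 are on the plus strand, and no pair shares a chromosome.

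Windows of 250 bases before the gene start were read from RefSeq (GRCm38.p6) to compare the starts of genes chosen for a shared rise. A window was found for 4 of the 5 genes, and Gm43267 had none of its own. For Gm43267 the window of Tecpr1 is shown, since the Tecpr1 start is 109 bases away on the other strand and the window spans the start of Gm43267. The windows of Fstl1 and Tstd1 are not printed, since 182 and all 250 of their bases fall in annotated exons of coding genes. The Tecpr1 window holds no such bases, but from position 144223725 to its end at 144223865 it is exon of Gm43267. Capitals mark matches, on either strand, to the GC box (GGGCGG) and the CCAAT box (CCAAT).

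9530053A07Rik, chr7:28129216-28129465, plus strand: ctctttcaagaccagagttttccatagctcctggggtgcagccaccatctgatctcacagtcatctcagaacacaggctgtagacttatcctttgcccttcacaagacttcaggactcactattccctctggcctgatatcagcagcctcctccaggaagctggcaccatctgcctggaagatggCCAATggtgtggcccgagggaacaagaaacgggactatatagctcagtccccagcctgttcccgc

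Ptger3, chr3:157566626-157566875, plus strand: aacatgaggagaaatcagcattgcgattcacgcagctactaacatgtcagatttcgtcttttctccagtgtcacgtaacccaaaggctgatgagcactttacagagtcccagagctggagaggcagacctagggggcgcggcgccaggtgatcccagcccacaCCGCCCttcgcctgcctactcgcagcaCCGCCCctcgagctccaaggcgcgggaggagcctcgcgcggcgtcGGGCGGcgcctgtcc

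Tecpr1, over the start of Gm43267, chr5:144223616-144223865, minus strand: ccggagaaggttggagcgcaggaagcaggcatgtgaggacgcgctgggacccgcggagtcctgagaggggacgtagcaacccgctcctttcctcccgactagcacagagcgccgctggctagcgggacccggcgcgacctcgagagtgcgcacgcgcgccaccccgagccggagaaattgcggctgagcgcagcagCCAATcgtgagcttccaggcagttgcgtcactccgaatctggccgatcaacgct

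The 3 windows were unlike each other. That of 9530053A07Rik held 1 CCAAT box and 3 CpG dinucleotides, that of Ptger3 held 3 GC boxes and 21 CpG, and that of Tecpr1 held 1 CCAAT box and 29 CpG. Over 27025 mouse genes the median window held 6 CpG, with quartiles of 2 and 16, a GC box was found in 32.9% and a CCAAT box in 34.5%. The Fstl1 window held 2 GC boxes, and the Tstd1 window held 1 TATA box (TATAAA), as 13.0% of windows do, and 1 CCAAT box. The E-box CACGTG, found in 6.05% of windows, and the AP-1 letters TGANTCA, found in 6.87%, occurred in none of the windows. GC and CCAAT boxes were searched on both strands and do not overlap in these windows. No motif of those searched was shared by all of the windows, and these are matches of letters only.

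Fstl1 was the most abundant of the 5 genes in normalized counts. It had 51.6, 70.2 and 82.0 normalized counts in WT-1, WT-2 and WT-3, and 256, 239 and 201 in cKO-1, cKO-2 and cKO-3. The genotypes were far apart, with the lowest cKO sample, cKO-3, at 2.45 times the highest WT sample. Behind these values stood between 52 and 84 reads per WT sample and between 220 and 263 per cKO sample. The mean was 67.9 ± 15.3 in WT and 232 ± 28.2 in cKO, a log2 difference of 1.78 (95% interval 1.37 to 2.18). The spread in WT, at 22.5% of the mean, exceeded the 12.4% expected from counting reads alone. Of its stretches of 50 bases in annotated transcripts, 5.35% also occur in other genes.

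9530053A07Rik had the highest log2 difference of all listed genes with 1 added before the log, and rank 3 with 0.1 added. Without WT-1 or without WT-2 it held rank 2. WT-1, WT-2 and WT-3 had 1.99, 3.57 and 9.76 normalized counts, which are 2, 3 and 10 reads. In cKO-1, cKO-2 and cKO-3 it had 96.6, 92.7 and 75.0 normalized counts, from 95, 102 and 82 reads. The gene was thus close to absent in WT and clearly counted in every cKO sample. The ratio of the means was 17.3, with 5.10 ± 4.11 in WT and 88.1 ± 11.5 in cKO. WT-3 alone set much of that ratio, which was 31.7 without it. On the log2 scale the difference was 4.07 (95% interval 3.11 to 5.02). Of its 11692 distinct stretches of 50 bases in annotated transcripts, 5.85% also occur in other genes, 674 of them in the gene that GENCODE names Fcgbp. That gene is not among the listed genes, and the part of shared reads in these counts was not tested.

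Tstd1, the sulfurtransferase gene, had 13.9, 19.0 and 17.6 normalized counts in WT-1, WT-2 and WT-3, and 75.2, 73.6 and 49.4 in cKO. The 3 WT samples were close together, with a spread of 15.7% of the mean that was below the spread expected from counting their 14 to 18 reads. In cKO, samples 1 and 2 were alike and sample 3 was lower, with 54 reads against 74 and 81. The mean rose from 16.8 ± 2.64 to 66.1 ± 14.5 normalized counts, a log2 difference of 1.90 (95% interval 1.19 to 2.60). Tstd1 overlaps the 3′ end of Usf1 on the same strand, and 200 of its 867 exon bases, 23.1%, are also Usf1 exon. Usf1, which encodes an E-box-binding transcription factor, went from 3768 ± 119 to 4520 ± 156 normalized counts. That is a log2 difference of 0.26 (limma adjusted p = 1.34e-05), far smaller on this scale than that of Tstd1. In normalized counts the rise of Usf1 was far larger than that of Tstd1. How many Tstd1 reads arose from Usf1 transcripts was not tested.

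Ptger3 was the least certain of the 5 genes. WT-1, WT-2 and WT-3 had 9.93, 0 and 5.86 normalized counts, which are 10, 0 and 6 reads. In cKO-1, cKO-2 and cKO-3 it had 19.3, 43.6 and 28.3 normalized counts, from 19, 48 and 31 reads. All 3 cKO samples were above all 3 WT samples, yet by little in the nearest pair. The 95% counting intervals of WT-1, 4.76 to 18.3 normalized counts, and of WT-3, 2.15 to 12.7, both overlapped that of cKO-1, 11.6 to 30.2. The absence of reads in WT-2 allows up to 4.39 normalized counts at the same level. The mean was 5.26 ± 4.99 in WT and 30.4 ± 12.3 in cKO, a ratio of 5.78. Its log2 difference of 2.82 (95% interval 1.37 to 4.28) had the widest interval of the 5 genes. Without WT-2 it was 1.79, and with 0.1 in place of 1 added before the log it was 3.99. None of its stretches of 50 bases was found in another gene.

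Gm43267 was the steadiest of the 5 genes. It had 37.7, 40.4 and 43.9 normalized counts in WT-1, WT-2 and WT-3, and 122, 149 and 147 in cKO. The WT spread of 7.61% of the mean was below the 16.0% expected from counting 34 to 45 reads. From 40.7 ± 3.10 in WT the mean rose to 139 ± 15.1 in cKO, a log2 difference of 1.75 (95% interval 1.28 to 2.22). Its start lies 109 bases from that of Tecpr1, which encodes a protein of autophagosome maturation and is transcribed from the other strand. Tecpr1 had 20506 ± 466 normalized counts in WT and 20718 ± 353 in cKO, a log2 difference of 0.01 with a 95% interval of −0.05 to 0.08. The methods do not say whether counting used strand, and the gene models share no exon bases.

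**Figure D2:**
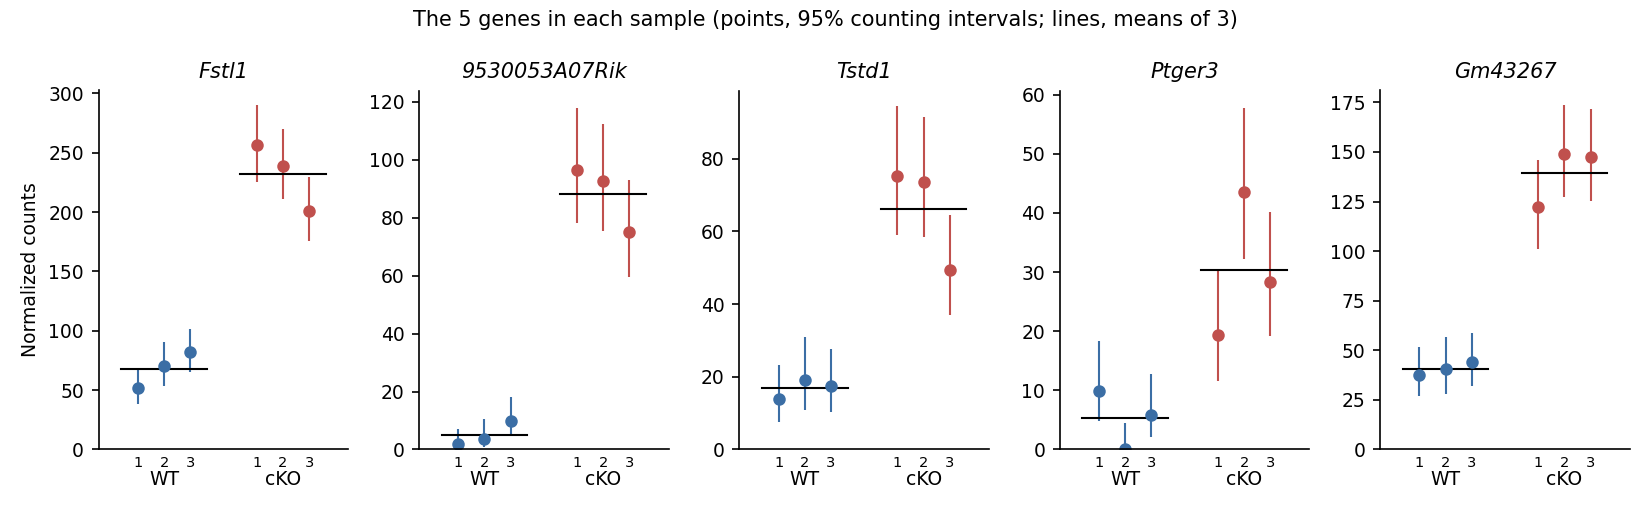
Normalized counts of the 5 genes (vertical axes, each from 0) in WT samples 1 to 3 (blue) and cKO samples 1 to 3 (red). Points are samples with 95% counting intervals and black lines are means of 3. Intervals of the genotypes are apart in every panel but that of Ptger3. There WT-1 reaches 18.3 and WT-3 reaches 12.7, and cKO-1 starts at 11.6.

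The 5 genes did not vary in the same way within a genotype. cKO-3, which had the highest Mettl3 count of the cKO samples, was the lowest cKO sample for Fstl1, 9530053A07Rik and Tstd1. cKO-1 was the lowest for Ptger3 and Gm43267. WT-3, which had the lowest Mettl3 count of the WT samples, was the highest WT sample for Fstl1, 9530053A07Rik and Gm43267. Among 136 other genes with a log2 difference of at least 1 and no overlap between genotypes, cKO-3 was the lowest cKO sample in 34.6% and WT-3 the highest WT sample in 39.7%. Counting intervals of cKO-3 overlapped those of cKO-1 in Fstl1, 9530053A07Rik and Tstd1. For Ptger3 the intervals of cKO-1 and cKO-2, 11.6 to 30.2 and 32.2 to 57.8 normalized counts, were apart.

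Levels of different genes were compared per kb of exon. In WT the order from the highest was Gm43267 with 22.7 ± 1.72, Tstd1 with 19.4 ± 3.05, Fstl1 with 13.8 ± 3.11, Ptger3 with 0.93 ± 0.88 and 9530053A07Rik with 0.43 ± 0.35 normalized counts per kb. Samples of each gene overlapped those of the next in this order, except that Fstl1 was clear of Ptger3. In cKO the order was Gm43267 with 77.6 ± 8.41, Tstd1 with 76.2 ± 16.7, Fstl1 with 47.2 ± 5.73, 9530053A07Rik with 7.44 ± 0.97 and Ptger3 with 5.35 ± 2.16. Tstd1 and Fstl1 no longer overlapped in cKO, and 9530053A07Rik and Ptger3 exchanged places in the order while still overlapping. For scale, the median gene had 234 normalized counts per kb in WT and 237 in cKO. Even in cKO, Gm43267 and Tstd1 stood only at percentiles 31.1 and 30.8 of all annotated listed genes per kb, and Ptger3 at percentile 3.06.

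The methylation motif GGACT, the form of the METTL3 consensus most often methylated, was counted in the longest annotated transcript of each gene. Per kb it occurred 1.32 times in Fstl1, 1.77 times in 9530053A07Rik, 1.12 times in Ptger3 and 1.11 times in Gm43267, against a median of 1.01 over listed genes. The longest Tstd1 transcript, 551 bases long, held none. The 5 genes thus ranged from none to percentile 83.9 in this count, which describes letters and not measured methylation.

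Listed genes were then searched for profiles like those of each of the 5. The measure was the root mean square difference between centred log2 profiles over the 6 samples, over 11751 genes with a mean of at least 1 CPM. Tstd1, 9530053A07Rik and Ptger3 were below 1 CPM and not among the genes searched, so the 5 genes were compared with each other separately. Fstl1 and Tstd1 were nearest to each other among the 5, with a difference of 0.16, followed by Fstl1 and Gm43267 with 0.22. Outside the 5 genes, the nearest to Fstl1 were Chil5 (0.24) and Rtn2 (0.24), the nearest to Tstd1 was Phlda3 (0.28), and the nearest to Gm43267 were Gdf15 (0.16), Cnga1 (0.16) and Chil5 (0.21). Gdf15, a secreted member of the TGF-β superfamily, went from 54.5 ± 11.4 to 192 ± 39.2 normalized counts. Phlda3, a pleckstrin homology domain gene, went from 38.6 ± 14.3 to 155 ± 19.7. For 9530053A07Rik and Ptger3 no gene came closer than 1.19 (Gm26802) and 1.06 (AI661453). The measure takes in the size of the rise, by which the 5 genes were chosen, so a large rise alone sets a gene apart. Scarce genes with large rises, such as Igkv4-68 (log2 difference 3.49) and Alb (3.29), were below 1 CPM and were not searched. These genes were selected for their likeness, and their values are a description.

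Genes beside each of the 5 on the chromosome were examined next, as the up to 3 listed genes on each side within 200000 bases and any that overlap. Of 23 such genes, 10 passed at an adjusted p under 0.05, of which 7 rose and 3 fell, beside 36.6% of all genes tested. Their log2 differences lay between −0.40 and 0.46, and the median size of 0.14 stood beside 0.17 over all genes. None came near the rise of the gene it adjoins.

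Near Fstl1, Ndufb4, a subunit gene of respiratory complex I, fell by 0.33 on the log2 scale (limma adjusted p = 0.000321), and Lrrc58 had a difference of −0.07 that did not pass the test. Near 9530053A07Rik, the zinc finger gene Zfp850 rose by 0.38 and the kinase gene Dyrk1b fell by 0.40, whereas Psmc4 (0.04), Zfp780b (−0.12), Gm31024 (−0.11) and Fbl (0.01) did not pass. Fbl, which encodes the nucleolar methyltransferase fibrillarin and starts 4898 bases beyond 9530053A07Rik on the same strand, had 6256 ± 235 normalized counts in WT and 6297 ± 162 in cKO.

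Around Tstd1, Arhgap30 (0.17), Alyref2 (0.46) and Ly9 (0.09) rose with Usf1, and the prefoldin gene Pfdn2 fell by 0.22 on the log2 scale, while Nectin4 (0.22) and F11r (−0.14) did not pass. Alyref2 had an adjusted p above 0.05 without any 1 of the 6 samples, at most 0.114. Before Ptger3, the splicing factor gene Zranb2 rose by 0.12, and Mir186, a microRNA gene within it, had a difference of −0.04 that did not pass. Ly9 did not pass without WT-2, WT-3 or any 1 of the cKO samples, and Zranb2 did not without WT-1, WT-3, cKO-1 or cKO-3, with adjusted p-values of at most 0.179 and 0.216. Beside Gm43267, the antisense RNA gene 2900089D17Rik rose by 0.39, and Bhlha15 (−0.27), Lmtk2 (0.08), Bri3 (0.01) and Baiap2l1 (0.16) did not pass, like Tecpr1. Lmtk2 passed with the samples scaled to equal totals (limma adjusted p = 0.00935) and without WT-1 (limma adjusted p = 0.0344). 2900089D17Rik had an adjusted p of 0.0980 without WT-1 and between 0.0515 and 0.0706 without any 1 of the cKO samples. Without cKO-1 or without cKO-3, 6 of the 23 genes passed.

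**Figure D3:**
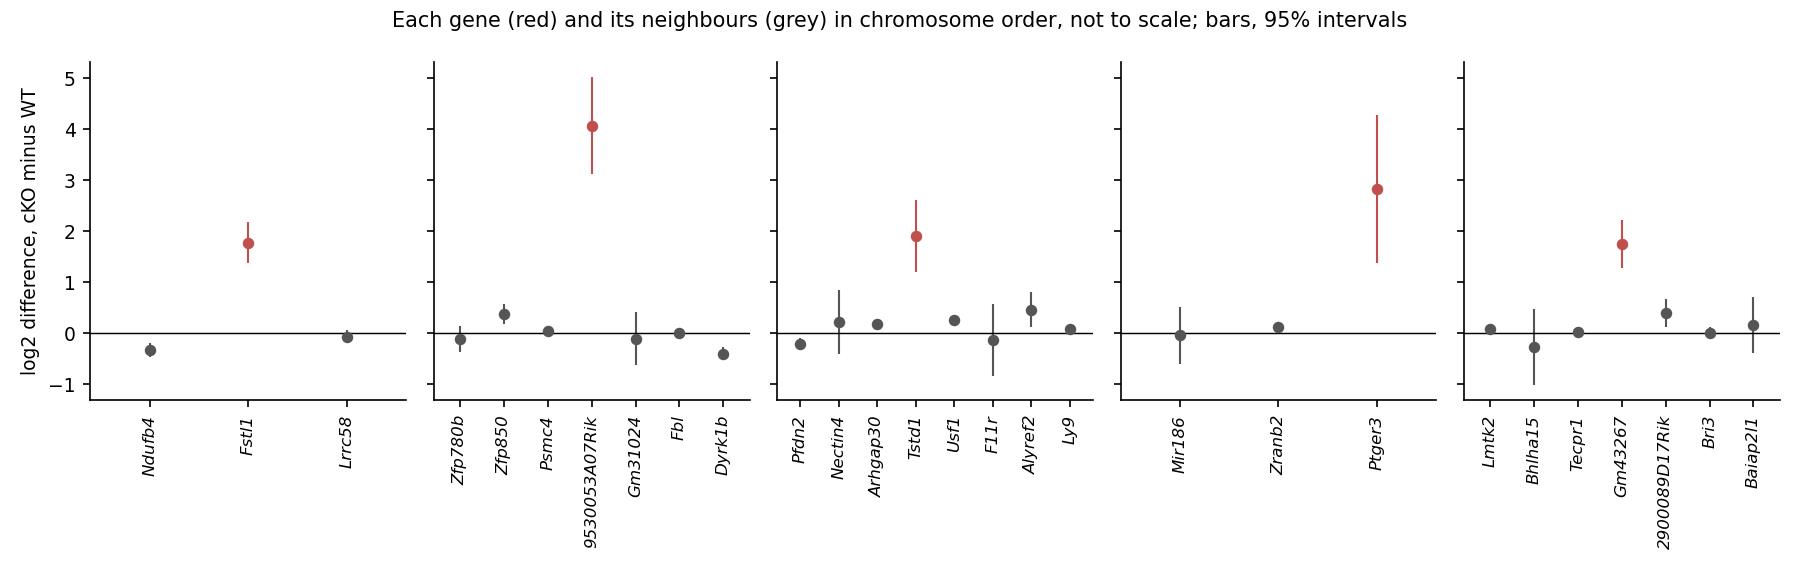
Log2 difference between cKO and WT (vertical axis) of each of the 5 genes (red) and its neighbours (grey) in chromosome order, with 95% intervals. The neighbours lie between −0.40 and 0.46, and each red point lies at 1.75 or above. Intervals of the red points take no account of the choice of these genes by their rise.

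The pathways around the 5 genes were described from gene lists, of which 72 genes of 109 were listed and 29 passed an adjusted p under 0.05, beside 36.6% of all genes. Among the 8 prostanoid receptors other than Ptger3, 4 were listed, 2 were higher and none was lower in cKO, with a median log2 difference of 0.08 beside 0.00 for all genes. Tbxa2r, the thromboxane A2 receptor gene, had 87.4, 75.0 and 109 normalized counts in WT-1, WT-2 and WT-3, and 174, 187 and 134 in cKO. The genotypes did not overlap, and its log2 difference was 0.86 (standard error 0.20, limma adjusted p = 0.00105). Ptger4, encoding EP4, was by far the most abundant receptor and rose from 19090 ± 331 to 20763 ± 495 normalized counts, a log2 difference of 0.12 (limma adjusted p = 0.00279). Ptger1 (0.03, 95% interval −0.27 to 0.33) and Ptger2 (−0.14, 95% interval −0.47 to 0.18) did not pass. In cKO, normalized counts of Ptger3 were thus 30.4 ± 12.3 beside 20763 ± 495 of Ptger4, without correction for length.

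Enzymes and transporters of prostaglandins differed in both directions. Of 13 listed genes, 1 was higher and 2 were lower in cKO, beside 17.8% and 18.8% of all genes. The median log2 difference was 0.01 and the median size was 0.23, beside a median size of 0.17 over all genes. Ptgs1, the constitutive cyclooxygenase gene, fell by 0.34 on the log2 scale (limma adjusted p = 0.00302), and Ptges3, a cochaperone gene also known as cytosolic prostaglandin E synthase, fell by 0.25. The exporter gene Abcc4 rose by 0.19 (limma adjusted p = 0.0188), with an adjusted p of 0.137 without WT-3 and 0.116 without cKO-1. Ptgs2, the inducible cyclooxygenase gene, had 177 and 228 mean normalized counts in WT and cKO (adjusted p = 0.0506, and between 0.0243 and 0.168 over the alternatives), and Hpgd, which degrades prostaglandin E2, had 488 and 408 (limma adjusted p = 0.0597). The other listed genes, Pla2g4a, Ptges2, Hpgds, Ptgis, Tbxas1, Ptgr1, Ptgr2 and Slco2a1, did not pass.

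Downstream of the EP receptors, 12 of 21 listed genes of G proteins, adenylyl cyclases and cyclic AMP effectors passed, beside 36.6% of all genes. Of these 21 genes, 3 were higher and 9 lower in cKO, beside 17.8% and 18.8% of all genes. Their median log2 difference was −0.12. Crem, a cyclic AMP-responsive transcription factor gene, fell by 0.52 on the log2 scale, Prkar1a, a regulatory subunit gene of protein kinase A, by 0.36, and the phosphodiesterase gene Pde4b by 0.32. Creb1 (0.21), Adcy7 (0.18) and Adcy3 (0.14), the latter pair encoding adenylyl cyclases, rose. Adcy3 had an adjusted p between 0.121 and 0.165 without WT-2, WT-3, cKO-2 or cKO-3. The inhibitory G protein genes Gnai2 and Gnai3, whose products couple to EP3, both fell, Gnai3 from 17243 ± 879 to 14286 ± 261 normalized counts.

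Of the follistatin and SPARC family besides Fstl1, 4 of 11 genes were listed. Smoc2, a matricellular protein gene, fell from 30.6 ± 5.74 to 12.3 ± 3.23 normalized counts (limma adjusted p = 0.0237), and Fstl3, Spock2 and Smoc1 did not pass. The adjusted p of Smoc2 was above 0.05 without WT-1, WT-2 or cKO-2, at 0.0984, 0.0559 and 0.0736. The cKO mean of Smoc2 lay under 16.7, the lowest mean of any listed gene, so Smoc2 was listed only through its WT samples. Its p-values take no account of this. Among 6 listed genes of 7 that encode reported binding partners of FSTL1, the membrane-associated protein gene Dip2a fell by 0.50 on the log2 scale and Cd14 rose by 0.46 (limma adjusted p = 0.0393), with Tlr4, Bmp2, Bmpr2 and Tgfb1 not passing. Without WT-2, cKO-1 or cKO-3, the adjusted p of Cd14 was above 0.05, at most 0.171, and with all 6 samples it was 0.0522 by limma-voom.

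BMP and activin receptors and SMADs held 13 listed genes, of which 6 were higher and 1 lower in cKO. Over all genes 17.8% were higher and 18.8% lower. The median log2 difference of the 13 genes was 0.11. Id3, a target gene of BMP signals, had 78.5, 108 and 116 normalized counts in WT-1, WT-2 and WT-3, and 209, 184 and 178 in cKO, a log2 difference of 0.93 (limma adjusted p = 0.000208). Acvr1, a type I BMP receptor gene, was scarcer, with 19.9, 23.8 and 30.3 in WT and 58.0, 61.8 and 43.9 in cKO, and rose by 1.12 (limma adjusted p = 0.00830). Neither gene overlapped between genotypes. Acvr2a rose by 0.34 and Smad5, which carries BMP signals to the nucleus, fell by 0.37.

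Around Tstd1, 8 of 11 names of sulfurtransferases and sulfide-oxidising enzymes were listed. Of these, 2 were higher and none lower in cKO, beside 17.8% and 18.8% of all genes, with a median log2 difference of 0.04. Mpst, the mercaptopyruvate sulfurtransferase gene, rose from 1684 ± 48.5 to 2097 ± 98.6 normalized counts, and Mocs3, whose product also has a rhodanese domain, rose from 503 ± 74.0 to 681 ± 90.9. Tst, Tstd2, Tstd3, Sqor, Ethe1 and Suox did not pass. Of 13 genes with von Willebrand factor D domains, the list chosen for its relation to Fcgbp, 4 were listed (Vwf, Muc6, Sspo and Kcp). None passed by limma, with 0 at an unadjusted p under 0.05 and 0 by limma-voom, and 1 passed without WT-3.

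**Figure D4:**
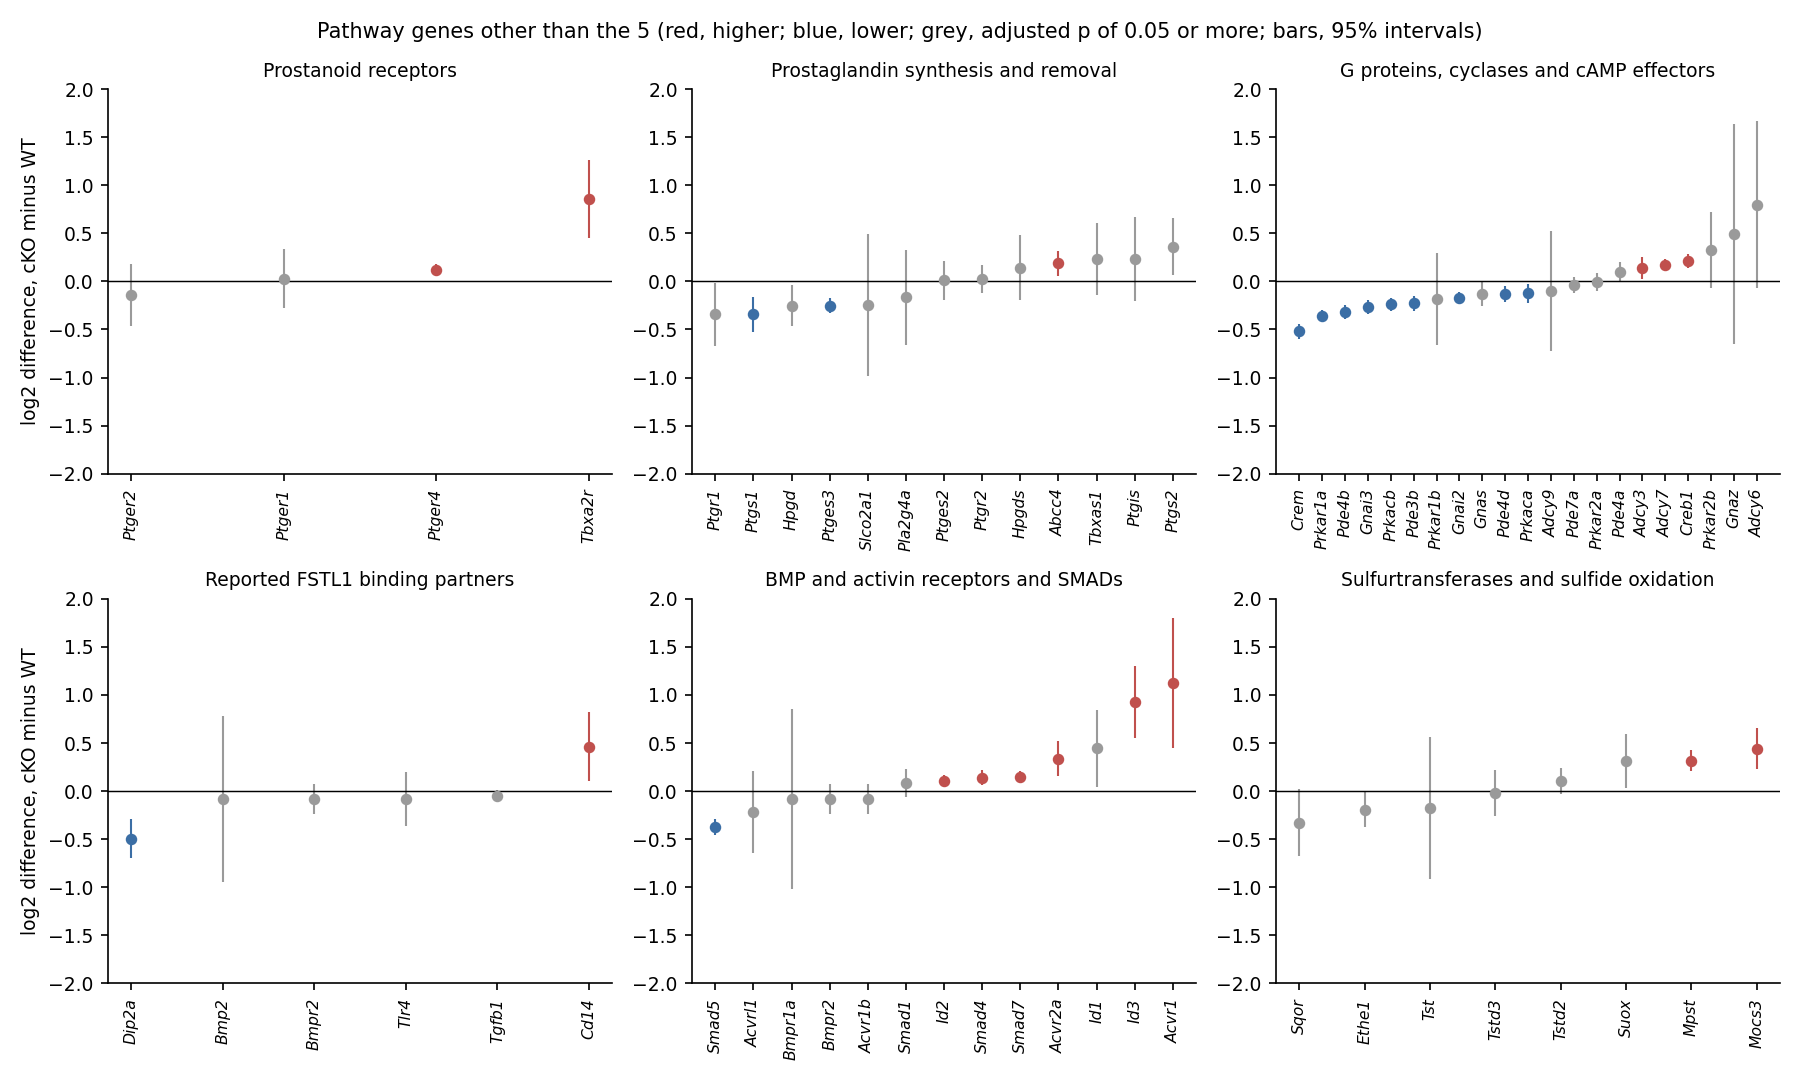
Log2 difference between cKO and WT (vertical axes) of listed genes in 6 pathway lists, without the 5 genes themselves, with 95% intervals. Red and blue points passed an adjusted p under 0.05 as higher and lower, and the largest red differences are those of Tbxa2r (0.86), Id3 (0.93) and Acvr1 (1.12).

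Markers of other cells were read beside these values, since low counts can come from few cells. Of 13 fibroblast and reticular cell markers, cells known for Fstl1, 11 were not listed, and the 2 listed, Col1a1 and Col1a2, summed to between 43.7 and 79.7 normalized counts in WT and between 64.1 and 70.0 in cKO, neither passing. Endothelial markers held 3 listed of 9, none passing, with sums of 4747 to 4765 and 4771 to 4971. Pecam1 made up most of these sums, with a mean of 4372 in WT. Mast cell and basophil markers held 5 listed of 8, with sums of 1938 to 2196 in WT and 1538 to 1609 in cKO, and Kit alone passed, falling by 0.53 on the log2 scale. Kit made up most of these sums, with means of 1662 in WT and 1146 in cKO. B cell markers rose in 5 of 8, among them Cd79a, Ms4a1 and Pax5, beside 17.8% of all genes. The other 3 did not pass, among them Cd79b with a log2 difference of 0.05. Sums of the 8 B cell markers were 9599 to 10512 in WT and 10984 to 11694 in cKO, most of it from a single gene. Platelet markers held 4 listed of 10, with sums of 663 to 779 and 658 to 748. Of these, 1, the collagen receptor gene Gp6, rose from 10.1 ± 6.67 to 37.4 ± 12.7 normalized counts (limma adjusted p = 0.00322). The WT mean of Gp6 lay under 16.7, the lowest mean of any listed gene, so Gp6 was listed only through its cKO samples. Its p-value takes no account of this. T cell markers held 8 listed of 9, with Cd3g and Cd6 lower, and sums of 2617 to 2808 and 2291 to 2492. Myeloid markers held 7 listed of 10, with Cd14, Adgre1 and Cd68 higher and Lyz2 and Cst3 lower, and sums of 10861 to 11558 and 10449 to 11336. Erythroid markers held 6 listed of 8, none passing, with sums of 834 to 898 and 715 to 862, and ILC1 markers held 6 of 6, with Il7r higher and sums of 1676 to 1806 and 2001 to 2155. In the NK cell list itself, 2 markers of 12 were higher and 7 lower, beside 17.8% and 18.8% of all genes. Erythroid, endothelial and fibroblast lists held 0 genes passing by limma, with 1, 1 and 0 at an unadjusted p under 0.05 and 0 in each by limma-voom. Each held 1 passing gene when a single sample was left out, WT-1, cKO-1 or cKO-2 for the erythroid list, WT-3 for the endothelial list and WT-2 for the fibroblast list. With the samples scaled to equal totals, Cst3 and Cd6 did not pass (limma adjusted p = 0.0774 and 0.0531). Calls of Cd6, Cd68, Ms4a1 and Pax5 were lost without some single samples, among them cKO-1 for Ms4a1 (limma adjusted p = 0.0998) and for Pax5 (limma adjusted p = 0.105), and WT-1 for Pax5 (limma adjusted p = 0.0619). The part of other cells in the counts of the 5 genes was not tested.

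The rise of the 5 genes was then set out under each way of treating the values. Under every setting that kept a gene its difference stayed above 1.5 on the log2 scale. Dropping the filter, the stricter filter and the replicate block cannot change the difference of a gene that is kept. Only the other settings bear on its size. Fstl1 lay between 1.59 and 1.92, Gm43267 between 1.70 and 1.84, and Tstd1 between 1.77 and 2.09. 9530053A07Rik lay between 3.66 and 4.58, and Ptger3 between 1.79 and 3.99. Tstd1 and Ptger3 were dropped by the stricter filter, which asked for 1 CPM in 3 of the samples.

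**Figure D5:**
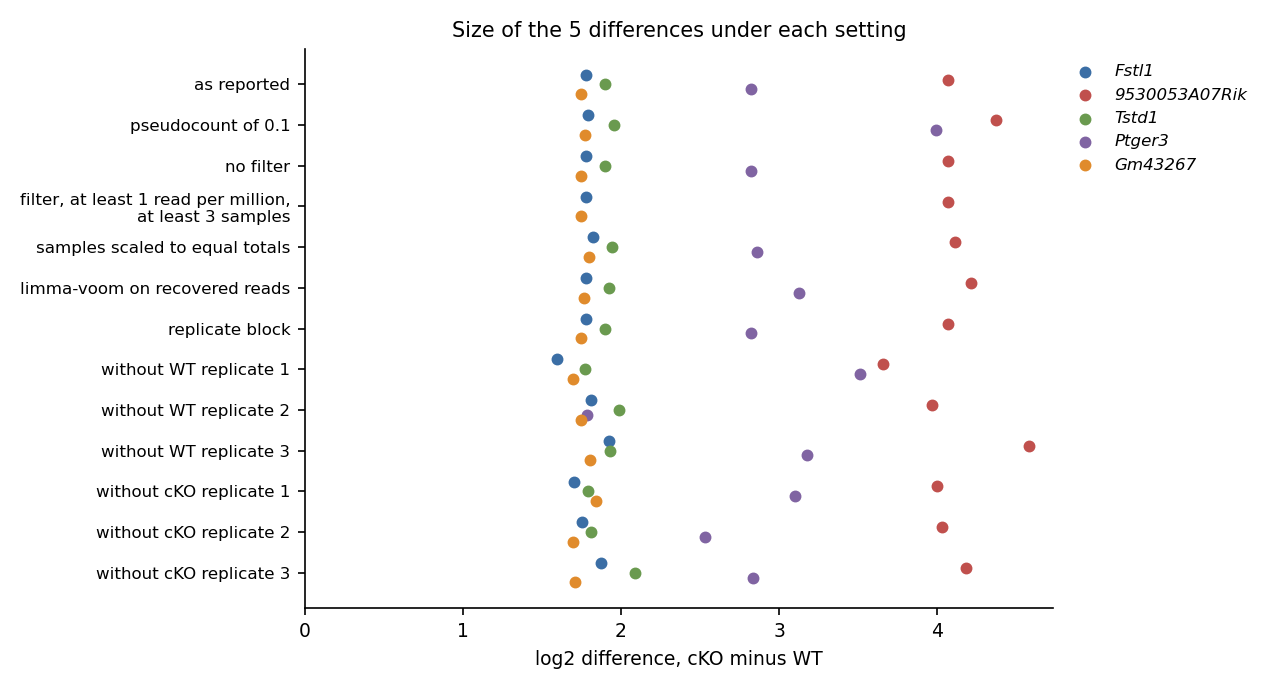
Log2 difference between cKO and WT (horizontal axis, from 0) of the 5 genes under the values as reported and 12 other settings (rows). In the rows of the filters and the replicate block, the difference of a kept gene equals that as reported by construction. Fstl1, Tstd1 and Gm43267 stay between 1.59 and 2.09, whereas Ptger3 moves between 1.79 and 3.99; Tstd1 and Ptger3 are missing from the row of the stricter filter.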

How the data were processed

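mRNA-seq was analysed in 3 WT and 3 cKO samples of splenic NK cells. Paired-end reads were aligned by the authors to GRCm38 with Hisat2, counted per gene with featureCounts and compared with DESeq2; the submitters' processing notes give HISAT2 2.0.5, featureCounts 1.5.0-p3 and DESeq2 1.16.1. The values the authors deposited are a signal, the read count of each gene divided by the size factor of its sample. The deposited table also holds the authors' mean, log2 fold changes with standard errors, a test score, p-values and adjusted p-values, none of which were used. Whether counting used strand is not given in the sources used here.

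Every value of a sample was a whole multiple of 1 step within a tolerance of 0.01 reads, so reads could be recovered, with between 55965515 and 71464042 reads on listed genes per sample. Intervals on single values are exact Poisson intervals at 95% and cover counting error only. The genotype was fitted on log2(value + 1) by limma (version 3.58.1, R 4.3.3, trended variance) in the 14490 of 14490 genes that had a value of 1 or more in 3 or more samples. Tests were two-sided, and the Benjamini-Hochberg method was applied across all genes at 0.05. Fold changes on this scale are understated for low genes. On simulated data these steps called 97 of 100 genes with a log2 difference of 1, 65 of 100 with 0.3 and 15 of 14290 unchanged genes. The simulation gave every gene the same dispersion and changed few genes, drawn at all levels. These rates therefore need not hold for scarce genes or for data in which many genes differ. Samples of a genotype differed by more than counting noise (chi-square per degree of freedom between 5.50 and 8.00), and each was kept as a sample.

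Positions came from GENCODE M21, in which 97.1% of names matched 1 gene, and 19 names were spreadsheet dates. In the B cell list, 1 further marker is not reported here. The 5 genes, the pathway and marker lists and the tests were chosen with earlier results of these data known. Genes named are the 5, Mettl3 and Ncr1, their neighbours, in each list up to 3 genes a direction with an adjusted p under 0.05 and the largest differences, with the prostanoid receptors and enzymes, and the 3 genes nearest in profile to each of the 5. Other genes are named only to account for a count or to show a limit, and were picked after their values were seen. As alternatives, 0.1 was added in place of 1, the filter was dropped or set to 1 CPM in 3 samples, totals were made equal, limma-voom was used, the replicate number was entered as a block, and samples were left out one at a time.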

Additional observations from a re-analysis of the deposited data

How the results depend on the processing

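The direction of the 5 rises was fixed by their choice, since their samples do not overlap between genotypes. Counts over all genes and over the pathway lists stayed within 1.5 times. Over all genes 5307 passed, between 5246 and 5543 under the settings that kept all samples and between 4417 and 4922 with 1 sample left out. With the samples scaled to equal totals the median log2 difference was 0.05, and 3487 genes passed as higher and 2016 as lower, 63.4% higher in place of 48.5%. In the pathway lists 29 passed, between 24 and 30 with 1 sample left out. Of the 23 neighbours 10 passed, and between 6 and 8 did with 1 sample left out; fewer samples are tested there.

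With the replicate number as a block 5543 genes passed, 30 in the pathway lists and 10 next to the 5 genes. Deviations of same-numbered samples had correlations of −0.02, 0.12 and 0.04, so the numbers were not taken to pair samples.

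Among single genes named, signs turned only in genes that passed in no setting. With 1 sample left out, log2 differences ranged from −0.21 to 0.041 for Gm31024, −0.019 to 0.035 for Fbl, −0.42 to 0.070 for F11r, −0.16 to 0.15 for Mir186, −0.0040 to 0.028 for Tecpr1, −0.56 to 0.20 for Bhlha15, −0.046 to 0.071 for Bri3, −0.029 to 0.086 for Ptger1, −0.055 to 0.089 for Ptges2 and −0.0066 to 0.096 for Ptgr2. With equal totals Mir186 stood at 0.0038. The cause was not tested.

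With 3 samples per genotype and fewer than 11 reads per WT sample for 9530053A07Rik and Ptger3, the size of their rise is loosely known. Count tests on the recovered reads, planned as 2 further alternatives, were not run.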
